A study of Mus musculus with 9 samples.

Results

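T cells and natural killer (NK) cells are lymphocytes that a pancreatic islet preparation can contain beside its hormone-secreting cells, and 33 genes that mark them were followed through 9 islet libraries. They form a list of known genes of these cells, chosen with earlier results of these data known, and they were looked up by symbol among the 56941 gene identifiers of the deposited count table, which held all 33. They fall into 6 roles: 7 genes of the T cell receptor complex, 3 coreceptor genes, 4 proximal kinases and adaptors, 9 costimulatory, adhesion and cytokine receptors, 4 transcription factors, and 6 cytotoxic and NK cell genes. The islets came from wild-type male C57BL/6J mice that were 15 weeks old when feeding began and stayed on their diet for 9 months. A diet low in fat served as control (LFD, 3 libraries) and held 10% fat, the high fat diet (HFD, 2 libraries) 60% fat and the ketogenic diet (KD, 4 libraries) 89.9% fat. The question of the study was the effect of ketogenic feeding on islet transcripts. The labels do not say whether each library was 1 mouse or a pool, so p-values measure only the spread between these libraries.

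A T cell recognises its target through a receptor whose variable chains bind peptide held by major histocompatibility complex (MHC) molecules, while the invariant CD3 and zeta chains carry the signal inward. The kinases Lck and Zap70 and the adaptor Lat pass that signal on, costimulatory receptors such as Cd28 and Icos raise it, and Ctla4 restrains it. NK cells lack this receptor and kill through perforin and granzymes under the control of receptors such as Klrd1 and Ncr1, and cytotoxic T cells use the same granule proteins. In bulk islet RNA, fewer cells of a type and less RNA per cell cannot be told apart.

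Library totals ran from 15513502 to 26588390 counts, and levels are given as counts per 1000000 (CPM) of the library size scaled by the trimmed mean of M-values (TMM). The scaling factors ran from 0.54 to 1.5, and the 4 KD libraries held 18.5% to 56.1% of their counts in 18 acinar marker genes, against 14.0% to 32.0% on LFD and 10.5% to 17.3% on HFD. Unscaled totals made each LFD over KD ratio from all libraries 1.51 times as large and turned no direction against LFD. No batch or date was given in the labels, so a batch and the diet cannot be told apart.

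The 33 genes together were sparse in all libraries and most abundant on LFD. Their summed level was 58.2, 142 and 22.3 CPM in LFD replicates 1 to 3, 12.7 and 13.3 CPM in the HFD libraries, and 17.4, 16.5, 13.3 and 9.32 CPM in KD replicates 1 to 4. All 3 LFD libraries lay above all 6 others, and LFD replicate 2 alone held 3170 of the 4595 LFD counts (69.0%). The pooled counts of the genes were 572 on HFD and 952 on KD. Much of what was left on KD came from Thy1, Tcf7 and Lck, singled out here after their values were seen. Without those 3 genes the other 30 summed to 42.6, 104 and 12.1 CPM on LFD, 4.55 and 3.90 CPM on HFD, and 2.05 to 3.50 CPM on KD. On KD, 25 of the 33 genes had 10 or fewer counts over the 4 libraries.

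**Figure D1:**
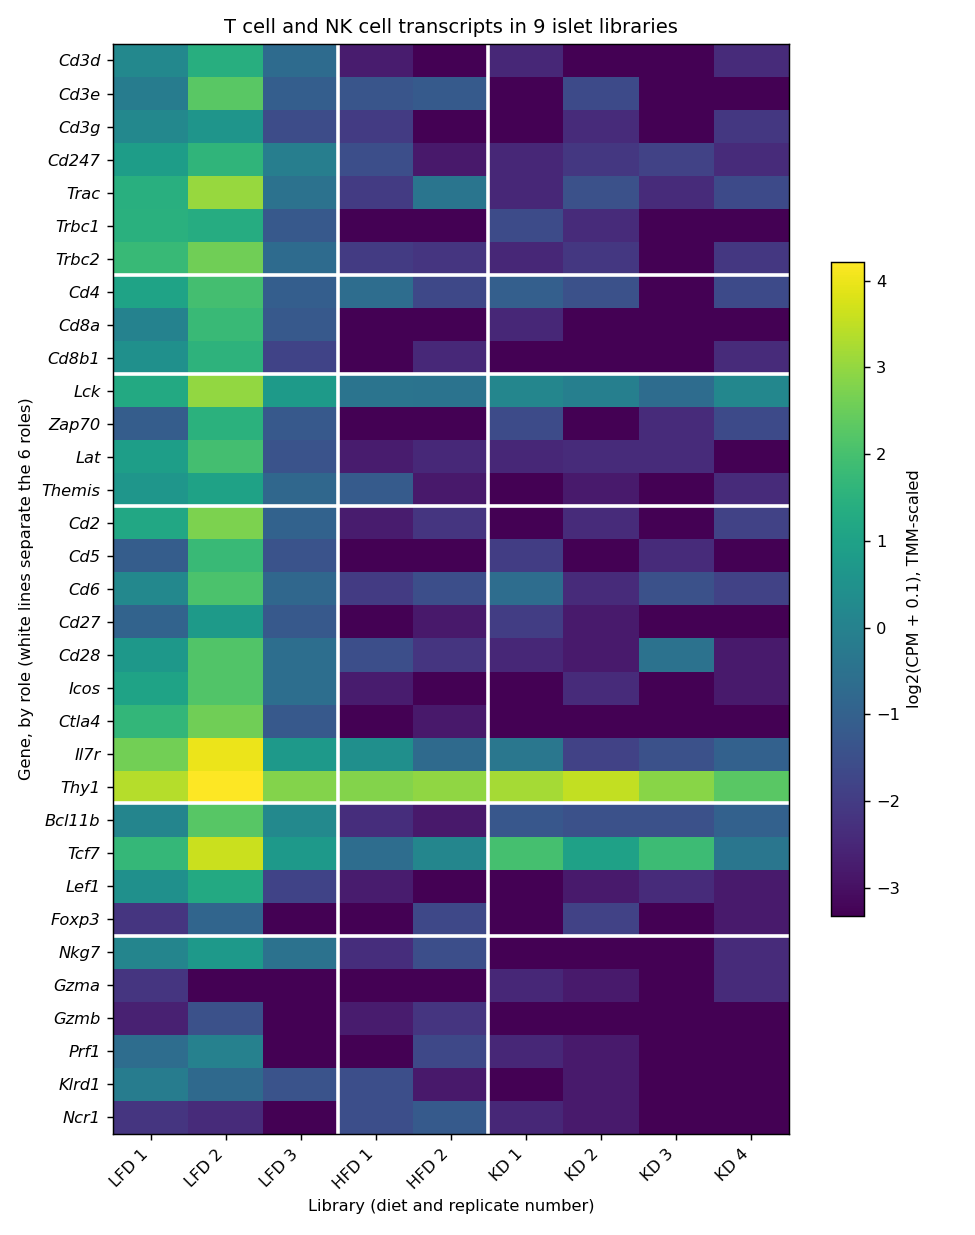
Level of each of the 33 genes (rows, grouped by role) in each of the 9 libraries (columns) as log2(CPM + 0.1), with TMM-scaled library sizes. LFD replicate 2 was the highest of the 9 libraries for 29 of the 33 genes, and Thy1, Tcf7 and Lck stayed visible in the HFD and KD libraries.

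The comparison of KD with LFD gave the most calls among these genes. By edgeR's quasi-likelihood test with Benjamini-Hochberg adjustment over 18548 genes, 20 of the 33 genes fell on KD (adjusted p below 0.05) and 0 rose (also at an unadjusted p below 0.05, and by DESeq2 and limma-voom), where edgeR called 3.14% of all genes tested lower and 0.981% higher, and DESeq2 and limma-voom 3.66% and 3.42% higher. All KD libraries lay below all LFD libraries for 23 of the 33 genes, against 10.1% of all genes tested. Those 23 include Zap70, Cd5 and Cd27, which did not enter the test, so the sets differ. Of the 33 genes, 26 passed the filter on low counts, 20 of them only through LFD libraries, so the count of called genes and the median are descriptions of genes that were high on LFD. The median log2 fold change of those 26 was -4.56, also with Ctla4, which had 0 counts on KD, placed at its bound, while the median of all genes tested was -0.02. Their log2 fold changes ran from -6.17, the bound of Ctla4, to -0.56 for Thy1. Several libraries decided the number of calls: leaving out LFD replicate 1 gave 6, LFD replicate 2 gave 3, KD replicate 1 gave 11, KD replicate 2 gave 3 and KD replicate 3 gave 4. The calls over all genes fell as well, from 4.12% to 0.970%, 1.24%, 2.06%, 1.08% and 0.822% of the genes tested in these omissions. The call held in every omission of 1 library for 2 genes, Trbc2 and Icos. Without LFD replicate 1 or 2, 15 of the 33 genes passed the filter on low counts. Of the called genes, Cd3e, Trbc1, Cd8a, Cd8b1, Lat, Cd2, Ctla4, Lef1 and Klrd1 were not tested in those omissions. Whether their calls depend on these LFD libraries is therefore not known.

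**Figure D2:**
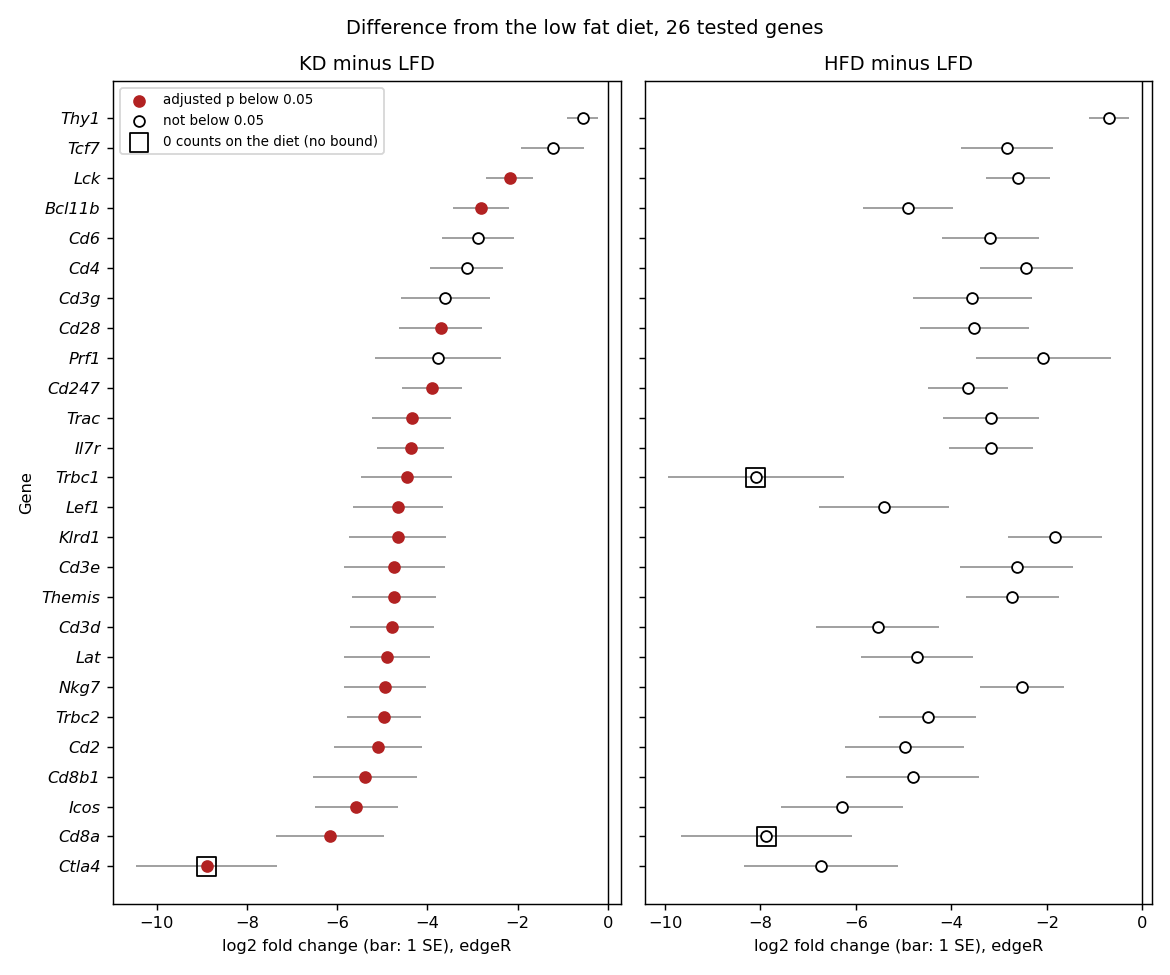
Log2 fold change against LFD, with 1 standard error from edgeR, for the 26 genes tested, on KD (left) and HFD (right); filled points have an adjusted p below 0.05, and squares mark genes with 0 counts on the diet, whose fitted value is no bound. On KD 20 genes were called lower, from Lck at -2.17 to Ctla4, and on HFD 0 were called while the values ran down to -6.73 for Ctla4, leaving out the squared genes.

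The constant chains of the receptor are encoded by Trac, Trbc1 and Trbc2. An alpha beta T cell uses Trac and either Trbc1 or Trbc2, whatever antigen it recognises. Trbc1 and Trbc2 are near-identical copies, and how the authors' counting assigned reads that match both is not given in the sources used here. Their coding parts in GENCODE M21 differed at 23 of 518 bases (95.6% identical) and shared an unbroken run of 259 bases. The stretch from coding base 400 to 489 holds 14 of the differences, shown here in capitals because reads there can tell the copies apart:
Trbc1: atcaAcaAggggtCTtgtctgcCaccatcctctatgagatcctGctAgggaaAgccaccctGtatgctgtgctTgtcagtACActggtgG
Trbc2: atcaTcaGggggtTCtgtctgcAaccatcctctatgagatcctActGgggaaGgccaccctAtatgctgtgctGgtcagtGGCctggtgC
Trac (ENSMUSG00000076928) measured 2.58, 8.24 and 0.610 CPM on LFD, 0.150 and 0.670 CPM on HFD, and 0.0778, 0.267, 0.0891 and 0.224 CPM on KD. Every KD library lay below the lowest LFD library, and HFD replicate 2 lay just above it. The log2 fold change of Trac on KD was -4.35 (edgeR adjusted p 0.0243, SE 0.87), and the pooled rate was 21.1 times as high on LFD (239 against 13 counts, exact 95% interval 12.1 to 40.2, which covers counting error only), or 7.74 times without LFD replicate 2. Trbc2 (ENSMUSG00000076498) measured 3.31, 5.87 and 0.516 CPM on LFD, 0.150 and 0.126 CPM on HFD, and 0.0778, 0.134, 0 and 0.134 CPM on KD. Its LFD libraries lay above all others, and the change on KD was -4.95 (edgeR adjusted p 0.0124, SE 0.82, at most 0.0497 in any omission). Trbc1 (ENSMUSG00000076490) had 43, 54 and 7 counts on LFD, 0 and 0 on HFD, and 3, 2, 0 and 0 on KD, and on KD it fell by 4.46 on the log2 scale (edgeR adjusted p 0.0365, SE 1.0). The calls of Trac and Trbc1 ended without KD replicate 2 or KD replicate 3, and that of Trac also without either of LFD replicates 1 and 2 or KD replicate 1 (edgeR adjusted p up to 0.0828 for Trac and 0.0978 for Trbc1). Trbc1 was not tested without LFD replicate 1 or 2. Against HFD, where Trbc1 was at 0, the pooled LFD rate was at least 25.4-fold higher, taking a floor of 3 counts over the HFD libraries.

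The CD3 chains are encoded by 3 neighbouring genes. In RefSeq's GRCm38.p6 annotation the starts of Cd3g and Cd3d lie 1355 bases apart on opposite strands, and those of Cd3d and Cd3e 27825 bases apart. Cd3d and Cd3e were called lower on KD while their neighbour Cd3g did not pass. Their log2 fold changes of -4.79, -4.73 and -3.60, with SEs of 0.93, 1.12 and 0.99, do not show that Cd3g differs from the others. The 250 bases before each start are shown as a description of the 3 genes. They are read 5′ to 3′ on each gene's own strand, with capitals for the letters AGGAAG or CGGAAG, a core of the Ets family of factors, on either strand. The windows are chr9:44981536-44981785 on the plus strand for Cd3d, chr9:44980432-44980681 on the minus strand for Cd3g and chr9:45009612-45009861 on the minus strand for Cd3e:
Cd3d: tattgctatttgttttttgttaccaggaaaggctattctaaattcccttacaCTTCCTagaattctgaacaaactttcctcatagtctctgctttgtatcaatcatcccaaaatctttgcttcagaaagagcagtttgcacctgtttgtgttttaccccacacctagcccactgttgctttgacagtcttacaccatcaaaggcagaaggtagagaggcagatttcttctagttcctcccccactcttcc
Cd3g: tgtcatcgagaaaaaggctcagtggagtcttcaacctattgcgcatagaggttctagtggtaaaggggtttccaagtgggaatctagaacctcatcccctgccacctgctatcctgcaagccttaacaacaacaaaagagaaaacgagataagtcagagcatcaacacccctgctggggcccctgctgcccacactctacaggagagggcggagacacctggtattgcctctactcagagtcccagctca
Cd3e: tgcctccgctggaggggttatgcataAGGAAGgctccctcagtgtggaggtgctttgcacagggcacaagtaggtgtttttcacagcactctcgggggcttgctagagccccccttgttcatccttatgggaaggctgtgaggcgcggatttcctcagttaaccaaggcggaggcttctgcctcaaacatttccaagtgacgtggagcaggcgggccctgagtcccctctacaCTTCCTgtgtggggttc
Those letters occurred 1 time for Cd3d, 0 times for Cd3g and 2 times for Cd3e, and in 39.2% of all 32851 RefSeq promoter windows of that length. They were in 16 of the 32 windows (50%) of the 22 genes of the list that had an entry. The Runx core, TGTGGT or TGCGGT on either strand, was in none of these 3 windows, in 18.6% of all windows and in 9 of the 32 (28.1%). A match describes the letters and is no measured binding site.

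Cd3d (ENSMUSG00000032094), the delta chain, measured 1.04, 2.55 and 0.516 CPM on LFD, 0.050 and 0 CPM on HFD, and 0.0778, 0, 0 and 0.0896 CPM on KD. The LFD libraries lay above all others, and the change on KD was -4.79 (edgeR adjusted p 0.0220, SE 0.93), with 85 counts on LFD and 3 on KD. Cd3e (ENSMUSG00000032093), the epsilon chain, measured 0.797, 4.79 and 0.375 CPM on LFD and 0.300 and 0.335 CPM on HFD, while KD replicate 2 held all 5 of its KD counts at 0.223 CPM. Here the HFD libraries came close to LFD replicate 3, and the call on KD was a log2 fold change of -4.73 (edgeR adjusted p 0.0426, SE 1.12). Cd3g (ENSMUSG00000002033), the gamma chain, had 17, 32 and 5 counts on LFD, 3 and 0 on HFD, and 0, 2, 0 and 3 on KD. Its LFD and KD libraries did not overlap, but its log2 fold change of -3.60 (SE 0.99) did not pass the test (edgeR adjusted p 0.0658). Cd247 (ENSMUSG00000005763), the zeta chain, which NK cells also use, measured 1.72, 2.96 and 0.844 CPM on LFD, 0.25 and 0.0419 CPM on HFD, and 0.0778 to 0.178 CPM on KD. It was the CD3 or zeta gene with the lowest p, with a log2 fold change on KD of -3.90 (edgeR adjusted p 0.0133, SE 0.67). Of the 7 receptor complex genes, 6 fell on KD. Leaving out LFD replicate 1 or 2 or KD replicate 2 or 3 ended the call of Cd3d (edgeR adjusted p up to 0.0808) and leaving out LFD replicate 2 alone that of Cd247 (0.0550). Cd3e lost its call in each omission that still tested it except that of LFD replicate 3, with an adjusted p up to 0.112.

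The coreceptors separate helper from cytotoxic T cells. Cd8a (ENSMUSG00000053977) and Cd8b1 (ENSMUSG00000053044) encode the chains of CD8, which binds class I MHC molecules, and Cd4 (ENSMUSG00000023274) binds class II. Cd8a had 15, 74 and 7 counts on LFD, 0 and 0 on HFD, and 1 count over the 4 KD libraries, in replicate 1. The LFD libraries lay above all others for Cd8a, at 0.920, 3.32 and 0.328 CPM. On KD its log2 fold change was -6.16 (edgeR adjusted p 0.0232, SE 1.19), and the pooled LFD rate was 110 times the KD rate with a counting interval of 19.3 to 4399, or 40.2 times without LFD replicate 2. Cd8b1 had 21, 63 and 4 counts on LFD against 2 on HFD and 2 on KD, and on KD it fell by 5.38 on the log2 scale (edgeR adjusted p 0.0295, SE 1.16). Both CD8 calls ended without KD replicate 1, 2 or 3 (edgeR adjusted p up to 0.0727 for Cd8a and 0.0862 for Cd8b1). Neither gene was tested without LFD replicate 1 or 2. Cd4 measured 1.96, 3.81 and 0.375 CPM on LFD, 0.550 and 0.210 CPM on HFD, and 0.389, 0.267, 0 and 0.224 CPM on KD. LFD replicate 3 lay below HFD replicate 1 and KD replicate 1, so the groups overlapped, and the change of Cd4 on KD of -3.13 (SE 0.81) missed the threshold (edgeR adjusted p 0.0548). Among the counts of Cd4 and Cd8a together, a pair chosen after the values were seen, Cd4 took 56.6% on LFD (exact 95% interval 49.7 to 63.2), all 16 counts on HFD (79.4% to 100%) and 16 of 17 on KD (94.1%, 71.3 to 99.9). Some dendritic cells also carry Cd4 transcripts, and 10 dendritic cell markers summed to 13.7 to 48.6 CPM on LFD, 24.1 and 17.8 CPM on HFD and 18.6 to 28.2 CPM on KD. Most of the KD sums came from Zbtb46 (17.7, 17.7, 18.7 and 11.1 CPM) and Fscn1 (7.16, 6.42, 4.90 and 4.30 CPM). Every other marker of that list was at most 0.980 CPM on KD. None of the 10 was at 0 in all HFD and KD libraries, and their part in the Cd4 counts was not tested.

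Downstream of the receptor, 3 of the 4 kinases and adaptors fell on KD and Zap70 did not enter the test. Lck (ENSMUSG00000000409), the kinase that phosphorylates the CD3 and zeta tails, measured 2.27, 7.84 and 1.64 CPM on LFD, 0.650 and 0.629 CPM on HFD, and 1.01, 0.846, 0.534 and 1.03 CPM on KD. The LFD libraries lay above all others, but Lck kept 61 counts on KD, and its log2 fold change of -2.17 (edgeR adjusted p 0.0412, SE 0.52) was the smallest among the called genes. The pooled rate of Lck was 4.65 times as high on LFD (3.50 to 6.26), or 2.16 times without LFD replicate 2. Lat (ENSMUSG00000030742), the membrane adaptor on which the signalling complex assembles, had 29, 85 and 6 counts on LFD, 1 and 2 on HFD, and 1, 2, 1 and 0 on KD, with a log2 fold change of -4.90 (edgeR adjusted p 0.0210, SE 0.95). Themis (ENSMUSG00000049109), a T lineage adaptor needed in thymic selection, had 24, 43 and 10 counts on LFD, 7 and 1 on HFD, and 0, 1, 0 and 2 on KD, with a log2 fold change of -4.74 (edgeR adjusted p 0.0224, SE 0.93). For Lat and Themis alike, every LFD library exceeded every HFD and KD library in CPM. Lat and Themis lost their calls without KD replicate 2 or 3, and Themis also without LFD replicate 1 or 2, where Lat was not tested (edgeR adjusted p up to 0.0655 and 0.0710). The call of Lck held in 2 of 9 omissions, those of LFD replicate 3 and KD replicate 4, with an adjusted p up to 0.154. Zap70 (ENSMUSG00000026117), the kinase recruited to the phosphorylated tails, had 6, 61 and 7 counts on LFD, 0 on HFD and 3, 0, 1 and 5 on KD. Its LFD libraries lay above the rest, and with no low-count filter its log2 fold change on KD was -3.05 (edgeR adjusted p 0.0652, SE 0.91).

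Among the 9 costimulatory, adhesion and cytokine receptors, 5 fell on KD, 2 were tested and did not pass, and 2 did not enter the test. Ctla4 (ENSMUSG00000026011), the inhibitory receptor of activated and regulatory T cells, measured 3.07, 5.87 and 0.328 CPM on LFD, 0 and 0.0419 CPM on HFD, and 0 in all 4 KD libraries. No KD library held a count, so the pooled LFD rate was at least 72.0-fold higher than on KD, with the floor of 3 counts over the 4 libraries, and at least 34.8-fold higher without LFD replicate 2 (edgeR adjusted p 0.0277 with all libraries). Against HFD, where Ctla4 had 1 count to 188 on LFD, the ratio was 138 (24.4 to 5461), or 66.4 without LFD replicate 2. Icos (ENSMUSG00000026009), the costimulator of helper T cells, measured 1.96, 4.44 and 0.563 CPM on LFD, 0.050 and 0 CPM on HFD, and 0, 0.0891, 0 and 0.0448 CPM on KD. Its LFD libraries stood well apart from the others, and the change on KD was -5.58 (edgeR adjusted p 0.0120, SE 0.92). Cd28 (ENSMUSG00000026012), the main costimulatory receptor, measured 1.53, 4.44 and 0.563 CPM on LFD, 0.25 and 0.126 CPM on HFD, and 0.0778, 0.0446, 0.623 and 0.0448 CPM on KD. KD replicate 3 lay above LFD replicate 3 and held 7 of the 10 KD counts of Cd28, and the change was -3.70 (edgeR adjusted p 0.0490, SE 0.92). The call of Cd28 held in 2 of 9 omissions, those of LFD replicate 3 and KD replicate 3 (edgeR adjusted p up to 0.166), and that of Ctla4 ended without HFD replicate 1 or 2 or KD replicate 2 or 3 (up to 0.0678). Ctla4 was not tested without LFD replicate 1 or 2. Of the counts of Ctla4 and Cd28 together, another pair chosen after the values were seen, Ctla4 took 58.0% on LFD (52.4 to 63.5), 1 of 9 on HFD (11.1%, 0.281 to 48.2) and 0 of 10 on KD (up to 30.8%, exact 95% intervals).

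Il7r (ENSMUSG00000003882), the receptor for interleukin 7 that keeps resting T cells alive, measured 6.07, 15.8 and 1.59 CPM on LFD, 1.25 and 0.503 CPM on HFD, and 0.700, 0.178, 0.267 and 0.403 CPM on KD. Every LFD library exceeded every other library, and the log2 fold change on KD was -4.37 (edgeR adjusted p 0.0152, SE 0.75). The pooled LFD rate of Il7r was 22.3 times that on KD (14.9 to 34.8), or 9.73 times without LFD replicate 2. Cd2 (ENSMUSG00000027863), an adhesion receptor of T and NK cells, had 36, 145 and 9 counts on LFD, 1 and 3 on HFD, and 0, 2, 0 and 4 on KD, with a change of -5.09 (edgeR adjusted p 0.0220, SE 0.98) and no overlap. Il7r and Cd2 lost their calls without KD replicate 2 or 3 (edgeR adjusted p up to 0.0580 and 0.0703), and Cd2 was not tested without LFD replicate 1 or 2. Cd6 (ENSMUSG00000024670), an adhesion receptor of T cells, measured 1.04, 4.12 and 0.469 CPM on LFD and 0.545, 0.0891, 0.267 and 0.179 CPM on KD. KD replicate 1 lay above LFD replicate 3, and the change of Cd6 did not pass (-2.88, edgeR adjusted p 0.0628, SE 0.79). Thy1 (ENSMUSG00000032011), the T cell surface marker that neurons and some stromal cells also make, measured 10.2, 18.5 and 6.99 CPM on LFD, 6.95 and 7.79 CPM on HFD, and 9.03, 11.3, 7.21 and 4.79 CPM on KD. Its groups overlapped, and its log2 fold change of -0.56 (edgeR adjusted p 0.356, SE 0.34) was the one nearest to 0. Its pooled LFD rate was 1.5 times that on KD (1.34 to 1.68), and 1.03 times without LFD replicate 2.

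Cd5 (ENSMUSG00000024669), which dampens receptor signalling, and Cd27 (ENSMUSG00000030336), a costimulator of the tumour necrosis factor receptor family, did not enter the main test. Cd5 had 6, 75 and 6 counts on LFD, 0 on HFD and 3 over KD, and Cd27 had 7, 36 and 7 counts on LFD, 1 over HFD and 3 over KD. For both genes all LFD libraries exceeded the others in CPM. Without the low-count filter, edgeR gave Cd5 a log2 fold change of -4.66 on KD (adjusted p 0.0325, SE 1.14) and Cd27 one of -3.95 (adjusted p 0.0229, SE 1.04). That fit called 24 of the 33 genes lower on KD, and 3.42% of all its genes in either direction.

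Of the 4 transcription factors, Bcl11b and Lef1 fell on KD, Tcf7 did not pass and Foxp3 did not enter the test. Bcl11b (ENSMUSG00000048251), which commits progenitors to the T lineage, measured 0.981, 4.70 and 1.08 CPM on LFD, 0.10 and 0.0419 CPM on HFD, and 0.311, 0.267, 0.267 and 0.403 CPM on KD. The 3 diets did not overlap, with HFD the lowest. The change of Bcl11b on KD was -2.82 (edgeR adjusted p 0.0303, SE 0.62), and the pooled LFD rate was 7.52 times that on KD (4.78 to 12.4), or 3.24 times without LFD replicate 2. Lef1 (ENSMUSG00000027985), a partner of Tcf7 in naive T cells, had 21, 51 and 4 counts on LFD, 1 and 0 on HFD, and 0, 1, 1 and 1 on KD, with a change of -4.65 (edgeR adjusted p 0.0281, SE 0.99) and no overlap. Both calls ended without KD replicate 1, 2 or 3, and that of Bcl11b also without LFD replicate 2 (edgeR adjusted p up to 0.133 for Bcl11b and 0.0819 for Lef1). Lef1 was not tested without LFD replicate 1 or 2. Tcf7 (ENSMUSG00000000782), the factor of naive and memory T cells, measured 3.13, 12.1 and 1.59 CPM on LFD, 0.550 and 1.01 CPM on HFD, and 3.89, 1.87, 3.47 and 0.672 CPM on KD. KD replicates 1 and 3 lay above LFD replicates 1 and 3, and the log2 fold change of -1.22 (edgeR adjusted p 0.327, SE 0.70) became 0.04 without LFD replicate 2. KD replicates 1 and 3, the highest on KD for Tcf7, also had the largest shares of counts in acinar markers (56.1% and 51.0%, against 40.7% and 18.5% in replicates 2 and 4). With the mean acinar marker level as a covariate the log2 fold change of Tcf7 was -2.36 for KD against LFD (edgeR adjusted p 0.106), and for KD against HFD it went from 1.61 (edgeR adjusted p 0.321) to -0.54 (edgeR adjusted p 0.903). The part of acinar content in the Tcf7 values was not tested. Foxp3 (ENSMUSG00000039521), the factor of regulatory T cells, had 2, 10 and 0 counts on LFD, 0 and 5 on HFD, and 0, 4, 0 and 1 on KD, and its groups overlapped in all comparisons.

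The cytotoxic and NK cell genes had few counts, 136 over the 3 LFD libraries, 36 over HFD and 11 over KD. Nkg7 (ENSMUSG00000004612), a granule membrane protein of cytotoxic T cells and NK cells, measured 0.981, 1.57 and 0.610 CPM on LFD, 0.10 and 0.251 CPM on HFD, and 0, 0, 0 and 0.0896 CPM on KD. Its libraries did not overlap between any of the diets, with KD the lowest, and its change on KD against LFD was -4.93 (edgeR adjusted p 0.0176, SE 0.91). Klrd1 (ENSMUSG00000030165), the CD94 chain of an MHC-sensing receptor of NK cells, had 13, 11 and 6 counts on LFD, 5 and 1 on HFD, and 0, 1, 0 and 0 on KD. On KD it fell by 4.66 on the log2 scale (edgeR adjusted p 0.0370, SE 1.08), and LFD replicate 1, not replicate 2, was its highest library. Both calls ended without KD replicate 2 or 3, that of Nkg7 also without LFD replicate 2 and that of Klrd1 also without HFD replicate 1, KD replicate 1 or KD replicate 4 (edgeR adjusted p up to 0.0594 and 0.0957). Klrd1 was not tested without LFD replicate 1 or 2. Prf1 (ENSMUSG00000037202), perforin, had 9, 20 and 0 counts on LFD, 0 and 5 on HFD, and 1, 1, 0 and 0 on KD. Its zero in LFD replicate 3 made the groups overlap, and its log2 fold change of -3.77 (SE 1.40) did not pass (edgeR adjusted p 0.142). The granzymes, the proteases that perforin lets into target cells, had few counts on every diet: Gzma (ENSMUSG00000023132) had 2 counts on LFD, 0 on HFD and 4 on KD, and Gzmb (ENSMUSG00000015437) had 7, 4 and 0. Ncr1 (ENSMUSG00000062524), the NKp46 receptor of NK cells, had 2, 2 and 0 counts on LFD, 5 and 8 on HFD, and 1, 1, 0 and 0 on KD. Both HFD libraries lay above all LFD and KD libraries for Ncr1, at 0.25 and 0.335 CPM against at most 0.123 CPM. The pooled LFD rate of Ncr1 was 0.225 times that on HFD (0.0535 to 0.729), and with no low-count filter the difference of HFD from LFD did not pass (log2 fold change 1.99, edgeR adjusted p 0.734, SE 1.53).

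Per kilobase of exon, on the scale of CPM divided by the union exon length in GENCODE M21, Trbc2 was the highest of the 33 genes on LFD at 4.67 ± 3.87 (SD, n = 3). Trac at 4.07 ± 4.24 and Thy1 at 3.97 ± 1.99 followed, and the 3 did not differ beyond their spread. Trbc1 (2.40 ± 1.70), Tcf7 (2.14 ± 2.16) and Cd2 (1.75 ± 1.79) came next, again within their spread. Ncr1, Foxp3 and Gzma were the lowest on LFD, at 0.0459, 0.0416 and 0.0406. On KD the order opened with Thy1 at 2.7, Tcf7 at 0.944 and Lck at 0.292 CPM per kilobase, while Trbc2 stood at 0.125 ± 0.0917 (SD, n = 4).

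The comparison of HFD with LFD shares its LFD libraries with the one above. EdgeR called 0 of the 33 genes, as it called 0% of all genes tested, with 23 of the 33 lower at an unadjusted p below 0.05 against 6.44% of all genes tested. DESeq2 called 12 of the genes lower, against 1.33% of all genes tested, and limma-voom 0, against 0.0485%. The smallest edgeR adjusted p was 0.170, for Bcl11b, whose log2 fold change was -4.91 (SE 0.95). The HFD libraries lay below all LFD libraries for 25 of the 33 genes, against 14.1% of all genes tested, and above them for 1, Ncr1, against 13.4%. Zap70, Cd5 and Cd27 among the 25, and Ncr1, did not enter the test. The median log2 fold change of the 26 genes tested was -3.54, also with Trbc1 and Cd8a, which had 0 counts on HFD, at their bounds, beside -0.00 over all genes. Here too, 20 of the 26 passed the filter only through LFD libraries. The median and the counts of lower genes are therefore descriptions of genes that were high on LFD. Without LFD replicate 3, edgeR called 14 of the genes and 1.06% of all genes tested, and 0 of the 33 in each of the other omissions. The receptor complex summed to 13.1, 28.3 and 3.42 CPM on LFD, 1.05 and 1.17 CPM on HFD, and 0.267 to 0.936 CPM on KD. The cytotoxic and NK cell genes summed to 2.64, 3.32 and 0.891 CPM on LFD, 0.650 and 0.964 CPM on HFD, and at most 0.233 CPM on KD. The LFD and HFD ranges overlapped for that role, and those of the receptor complex did not.

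Between KD and HFD, the diets rich in fat, edgeR called 0 of the 33 genes and 0% of all genes tested, and 0 of the 33 had an unadjusted p below 0.05, where 10.6% of all genes tested were lower and 12.1% higher at that level. DESeq2 also called 0 of them, but gave only 8 of the 26 genes tested an adjusted p, while it called 8.18% of all genes tested. Limma-voom called 0 of the 33 and 0% of all genes. The smallest edgeR adjusted p was 0.227. The libraries did not overlap for 4 of the 33 genes with KD lower (Cd3e, Nkg7 and, outside the test, Gzmb and Ncr1), against 18.2% of all genes tested, and for 1 with KD higher (Bcl11b), against 15.7%. Those shares are no larger than the background. Cd3e had a log2 fold change of -2.10 for KD against HFD (edgeR adjusted p 0.378, SE 1.36), Nkg7 of -2.42 (edgeR adjusted p 0.227, SE 1.12) and Bcl11b of 2.09 (edgeR adjusted p 0.233, SE 0.99). With standard errors of this size, the values do not show that the diets act alike. The direction also depended on scaling: with unscaled totals, the 33 genes summed to 15.6 and 20 CPM on HFD and 8.20 to 14.0 CPM on KD, without overlap, while the scaled sums overlapped. For Lck the pooled HFD rate was 0.721 times that on KD with scaled and 1.25 times with unscaled totals, and for Thy1 0.916 and 1.59 times.

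**Figure D3:**
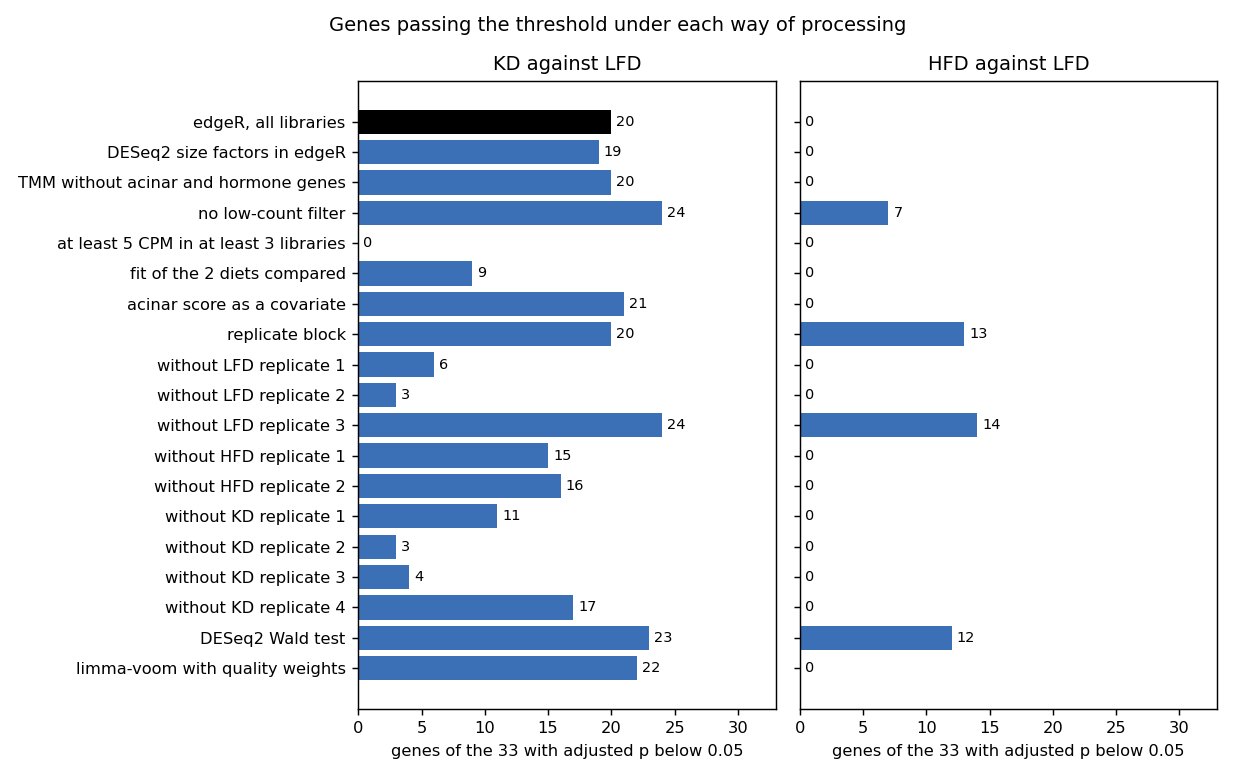
Number of the 33 genes with an adjusted p below 0.05 (bars) under each way of processing, for KD against LFD (left) and HFD against LFD (right); the black bar is edgeR on all libraries. The KD counts ran from 0 under the strict filter to 24 without LFD replicate 3, where 3.31% and 5.08% of all genes tested were called. The HFD counts ran from 0 to 14, the latter without LFD replicate 3, where 1.06% of all genes tested were called.

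Other genes of T cell and NK cell biology were taken from 6 lists chosen with earlier results of these data known. Some of them, such as Trdc and Ms4a4b, passed the low-count filter only through LFD libraries, so the counts and medians against LFD are descriptions. For KD against LFD edgeR called 3.14% of all genes tested lower and 0.981% higher. Of 27 further genes of receptor signalling, 10 fell on KD against LFD and 0 rose (22 tested, median log2 fold change -1.93). Of 32 homing, cytokine and checkpoint receptors, 14 fell and 0 rose (30 tested, median -3.36). Of 18 further lymphocyte transcription factors, 4 fell and 0 rose (16 tested, median -0.63), with Stat4, which relays interleukin 12, at -2.83 (edgeR adjusted p 0.0121, SE 0.47). In the Gimap and Ms4a4 families, 7 of 11 genes fell and 0 rose (median -1.75), among them Ms4a4b at -5.75 (edgeR adjusted p 0.0140, SE 0.99). Of 21 further effector genes, 3 fell (Ccl5, Klrc1 and Ctsw) and 15 did not enter the test. Of 17 genes of gamma delta T cells and innate lymphoid cells, 8 were tested and 3 fell, including Trdc, the delta receptor constant chain, which had 12, 69 and 20 counts on LFD, 0 and 0 on HFD and 1, 3, 0 and 0 on KD (-4.66, edgeR adjusted p 0.0247, SE 0.92). For HFD against LFD and for KD against HFD edgeR called 0 of the 93 genes of these 6 lists that were tested. At an unadjusted p below 0.05, 50 of the 93 were lower on HFD than on LFD (53.8%, against 6.44% of all genes tested) and 0 higher (against 3.55%). For KD against HFD, 10 were lower (10.8%, against 10.6%) and 3 higher (3.23%, against 12.1%), shares near or below the background. DESeq2 called 20 lower in the one and 1 lower and 1 higher in the other, where 66 of the 93 had an adjusted p, and limma-voom 0 in both.

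Markers of B cells and of all leukocytes fell on KD with these genes, and those of other cell types did so in part or not at all. For KD against LFD edgeR called 3.14% of all genes tested lower. Some of these markers, such as the B cell genes Pax5, Fcmr and Blk, passed the low-count filter only through LFD libraries. The counts of lower markers and the medians against LFD are therefore descriptions here too. The 17 B cell markers summed to 581, 1354 and 96.4 CPM on LFD, 69.4 and 90.6 CPM on HFD, and 38, 20.7, 12.5 and 19.4 CPM on KD. LFD replicate 2 was the highest and replicate 3 the lowest of the LFD libraries, the same order as for the 33 genes, and 16 of the 17 markers were called lower on KD (median log2 fold change -6.04). B cell markers had 16.2 to 29.8 counts per count of 12 T cell markers on LFD, 49.6 and 54.1 on HFD and 12.7 to 23.2 on KD. Without Ighm and Ebf1, left out after the values were seen, these were 4.19 to 6.87 on LFD, 3.11 and 4.33 on HFD and 1.27 to 1.90 on KD. Of 9 pan-leukocyte markers 6 fell on KD, with sums of 65.2 to 338 CPM on LFD, 53.1 and 52.2 CPM on HFD and 34.8 to 59.8 CPM on KD. The overlap of the KD and HFD sums rested on Lcp1, at 40.3, 21.4, 32.2 and 11.2 CPM in KD replicates 1 to 4. That is the order of their acinar marker shares, whose part in the Lcp1 values was not tested. Ptprc, Coro1a, Cd52, Laptm5 and Cd53 were lower in every KD library than in both HFD libraries, and Cd37, Arhgdib and Rac2 overlapped. Of 12 macrophage markers 1 fell on KD, Lyz2, with sums of 107 to 168 CPM on LFD, 122 and 156 CPM on HFD and 64.8 to 122 CPM on KD, and the median log2 fold change of that list was -0.61. At an unadjusted edgeR p below 0.05, 6 of the 12 were lower on KD than on LFD and 1 was higher. The shares of all genes tested at that level were 11.9% lower and 10.8% higher. Markers of lymph node stroma and vessels summed to 122 to 142 CPM on LFD, 102 and 111 CPM on HFD and 93.7 to 110 CPM on KD, and 2 of 12 fell on KD, Cxcl13 and the B cell marker Cr2. Prox1 was the largest part of each sum. It stood at 69.3 to 92.3 CPM on LFD, 72.3 and 68.1 CPM on HFD and 55.9 to 76.4 CPM on KD. Single markers differed more: Ccl21a had 28, 186 and 24 counts on LFD, 0 and 0 on HFD, and 0, 14, 0 and 9 on KD. Madcam1 went the other way on HFD, with 84 and 62 counts against 8, 8 and 12 on LFD. Cxcl13 is the chemokine that draws B cells into follicles, and it had 459, 298 and 25 counts on LFD, 18 and 7 on HFD, and 1, 6, 3 and 7 on KD. Of 10 dendritic cell markers 1 fell on KD, Ccr7, a chemokine receptor that naive T cells also carry (log2 fold change -6.46, edgeR adjusted p 0.0135, SE 1.07). Markers of red blood cells summed to 53.0 to 77.9 CPM on LFD, 146 and 71.3 CPM on HFD and 15.1 to 43.3 CPM on KD, so that KD lay below both other diets, and 1 of 5 fell, the haemoglobin gene Hba-a1 (-1.20, edgeR adjusted p 0.0315, SE 0.27). At an unadjusted edgeR p below 0.05 all 5 were lower on KD than on LFD, against 11.9% of all genes tested. All 5 were also lower than on HFD at that level, against 10.6%. Of 8 fibroblast and stellate cell markers 0 were called and 6 were lower on KD at an unadjusted p below 0.05, against 11.9% of all genes tested, with 0 higher, against 10.8%. Their sums were 419 to 736 CPM on LFD, 604 and 473 CPM on HFD and 204 to 420 CPM on KD. Endothelial markers summed to 377 to 481 CPM on LFD, 680 and 648 CPM on HFD and 349 to 548 CPM on KD, and 0 of 7 were called. Of 10 beta cell markers 0 were called on KD, of 7 other endocrine markers 1 fell, Hhex, and of 18 acinar markers 1 fell, Amy2b. At an unadjusted edgeR p below 0.05, 11 acinar markers were higher on KD. None of the markers in these lists was at 0 in all HFD and KD libraries, and the part of these other cells in the results on the 33 genes was not tested.

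**Figure D4:**
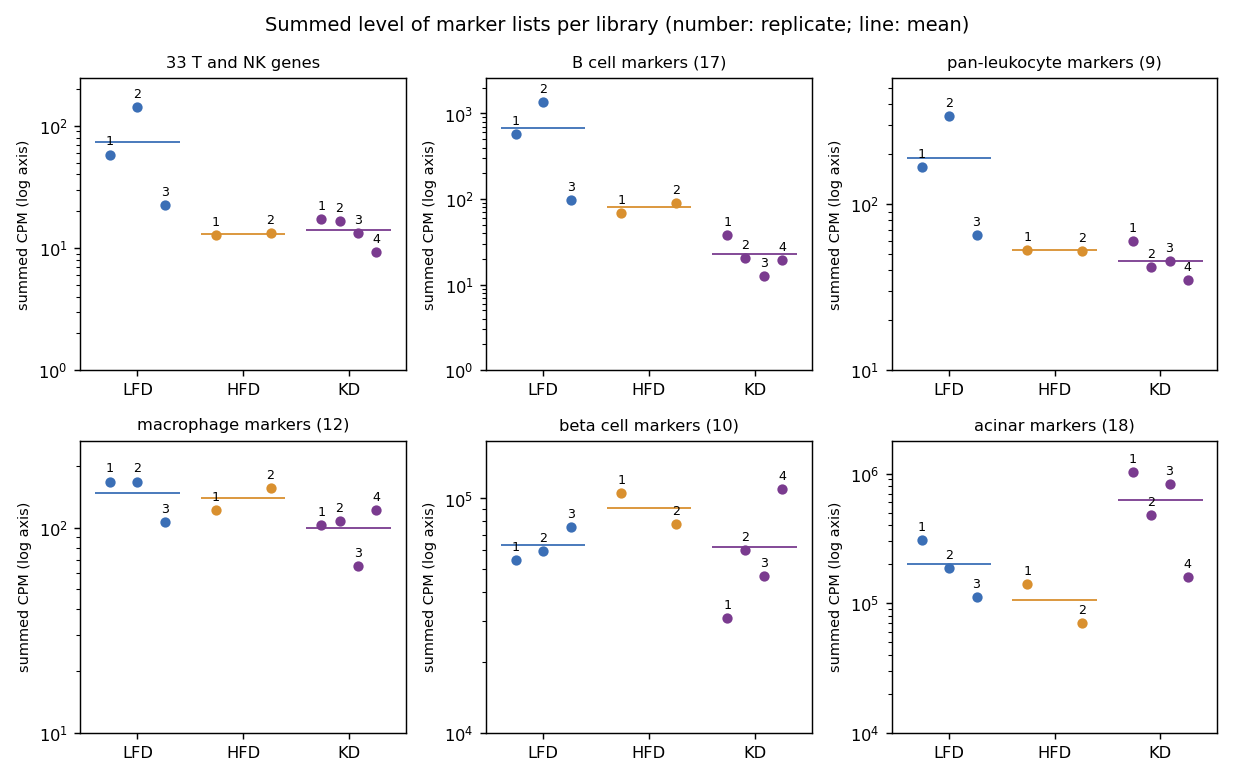
Summed level of the 33 genes and of 5 marker lists in each library, in TMM-scaled CPM on log axes, with the replicate number at each point and the mean of each diet as a line. LFD replicates 2, 1 and 3 keep that order, from 142 to 22.3 CPM for the 33 genes and from 1354 to 96.4 CPM for B cell markers, while the beta cell markers on KD span the values of both other diets.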

How the data were processed

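The authors deposited raw read counts per Ensembl gene for 9 libraries of islet RNA, with no normalization. Trizol and chloroform extraction, poly(A) selection and a directional library kit are named in the labels' protocols. The submitters' processing notes name cutadapt 1.16, STAR 2.7.9a, featureCounts 1.6.3, DESeq2 1.40.2 and the build GRCm39 (mm39), with no role or order. The strand setting, the annotation release and the treatment of reads that match several genes are not given in the sources used here.

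Symbols came from the annotation given, for 51948 of 56941 identifiers. With edgeR 4.0.16 in R 4.3.3, filterByExpr kept 18548 genes, with at least 99.86% of each library's counts. TMM scaling and a robust quasi-likelihood fit of 1 mean per diet over all 9 libraries followed, because the diets have too few libraries to estimate their own spread. Tests were two-sided, with Benjamini-Hochberg adjustment over all genes tested and a threshold of 0.05. Each standard error is the absolute log2 fold change divided by the root of its F statistic. The procedure was tested on simulated data. Ratios of pooled counts per scaled library size carry exact 95% conditional binomial intervals, and a group at 0 was set to a floor of 3 counts. Intervals and floors cover counting error only, since reads without molecular identifiers are not independent molecules. Promoter windows came from RefSeq (GRCm38.p6), and coding parts and exon lengths from GENCODE M21, which is not the build of the counts.

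All 33 genes were accounted for. Of each further list, up to 3 genes past the threshold with the lowest p for KD against LFD could be named. The genes, the lists and the tests were chosen with earlier results of these data known. Alternatives were other size factors, other filters, a fit of only the diets compared, an acinar covariate, the replicate number as a block, DESeq2 1.42.0, limma-voom (limma 3.58.1) and the omission of each library. Pooled ratios were also computed with unscaled totals and, chosen after seeing the data, without LFD replicate 2.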

Additional observations from a re-analysis of the deposited data

Results flagged for a closer look

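Among the 31 genes of the list with a count in any KD library, 7 had 1 KD library far from the other 3, by the gap to its nearest neighbour over the whole range. Chance alone marks about 1 in 20 groups, and values as sparse as these are marked more easily, since a single read can set a library apart from 3 zeros. Cd3e was at 0.223 CPM in KD replicate 2 (5 counts) and at 0 in the others. Cd8a was at 0.0778 CPM in KD replicate 1 (1 count) and at 0 in the others. Cd8b1 and Nkg7 were each at 0.0896 CPM in KD replicate 4 (2 counts) and at 0 in the others. Klrd1 was at 0.0446 CPM in KD replicate 2 (1 count) and at 0 in the others. Lat stood at 0 in KD replicate 4, while the other 3 libraries held 1, 2 and 1 counts. Cd28 reached 0.623 CPM in KD replicate 3 (7 counts), against 0.0446 to 0.0778 CPM (1 count each) in the others. The cause of these differences was not tested.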

How the results depend on the processing

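For KD against LFD, the number of the 33 genes called lower was 19 with DESeq2 size factors, 21 with the acinar covariate, 23 by the DESeq2 test and 22 by limma-voom. The shares of all genes tested that these called, in either direction, were 3.91%, 8.08%, 9.56% and 10.1%, against 4.12% in the main fit. Shares in brackets below are of the same kind. The number was 24 without a low-count filter (3.42%) and 9 in a fit of only those 2 diets (3.12%), where 14 of the genes were tested. With 5 CPM or more required in 3 or more libraries it was 0 (3.31%), where 1 gene was tested. Omitting 1 library gave 3 to 24 (0.822% to 7.40%). For HFD against LFD the count was 7 without the filter (0.261%), 12 by DESeq2 (1.44%), 0 to 14 in omissions (0% to 1.06%) and 0 elsewhere apart from the replicate block. For KD against HFD it was 0 in all 18 alternatives, some of which could hardly call a gene of the list: 8 had an adjusted p by DESeq2, 4 were tested in the fit of 2 diets and 1 under the strict filter. Calls over all genes reached 8.18% by DESeq2, 9.84% without KD replicate 4 and 12.5% with the replicate block.

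Over the single genes, the direction of KD against LFD held in 408 of 409 comparisons with an alternative, with 75 calls lost and 17 gained. The exception was Tcf7, whose log2 fold change ran from -1.68 to 0.04 in omissions, the latter without LFD replicate 2. For HFD against LFD the direction held in 419 of 419, with 46 calls gained. For KD against HFD it held in 338 of 381, changing for 2 to 9 genes in 9 of the 18 alternatives; Tcf7 went to -0.54 with the acinar covariate, and single genes other than Tcf7, Cd3e, Bcl11b and Nkg7 are summarised only by these counts. Without LFD replicate 2 the pooled LFD over KD ratio stayed above 1 for 30 of the 33 genes, and its median moved from 21.1 to 8.23.

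The replicate block called 20 of the genes for KD against LFD, where it called 10.8% of all genes tested, and 13 for HFD against LFD, where it called 2.13%. The labels give the diets shared replicate numbers but no pairing, and same-numbered LFD and KD libraries deviated together by correlations of 0.222, -0.0164 and -0.00265, so the block is given only here.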

Other observations

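The ratio of B cell to T cell transcripts differed between the diets in a way that depended on single genes. The HFD libraries had 49.6 and 54.1 counts of 17 B cell markers per count of 12 T cell markers, above all 3 LFD (16.2 to 29.8) and all 4 KD libraries (12.7 to 23.2). Ighm, the constant gene of immunoglobulin M, had more counts than any other B cell marker in all libraries except KD replicates 2 and 3. It had 1059 and 1661 counts on HFD, 939 to 25103 on LFD and 59 to 304 on KD. Without Ighm the ratio was 11.8 and 12.6 on HFD, 4.51 to 8.80 on LFD and 6.25 to 8.76 on KD, again with HFD above the others. Of the HFD counts left without Ighm, 242 of 329 and 329 of 502 were of Ebf1, a B lineage factor that stromal cells also make. Without Ighm and Ebf1 the ratio was 3.11 and 4.33 on HFD, 4.19 to 6.87 on LFD and 1.27 to 1.90 on KD, so HFD was no longer above LFD and overlapped it, and KD was the lowest. The T cell marker counts behind the HFD ratios were 28 and 40. These ratios were chosen after the values were seen and were not tested.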
